A study of Mus musculus with 16 samples.

Results

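Chemokines and their receptors were followed in engrafted brain macrophages and host microglia of bone marrow chimeric mice, without challenge and 12 h after lipopolysaccharide (LPS). The 65 members were taken by gene symbol from the 24411 genes of the deposited table: every Ccl, Cxcl, Ccr, Cxcr and Ackr gene with a number, together with Cx3cl1, Cx3cr1, Xcl1, Xcr1, Pf4, Ppbp and Ccrl2. They comprised 15 CXC ligands, 24 CC ligands, 2 CX3C and XC ligands, 11 CC receptors, 6 CXC receptors, 2 CX3C and XC receptors and 5 atypical receptors. The members were set by name and not by their values, though with earlier results of these data known.

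Each of 8 mice (strain C57BL/6J, genotype WT), irradiated with 950 cGy and given donor bone marrow, yielded both populations from its brain. Within the CD11b-positive gate that lacked Ly6C/G, low CD45.1 defined the engrafted cells and low CD45.2 the host microglia. Mice 1 to 4 had received 2.5 mg/kg LPS intraperitoneally 12 h before, and mice 5 to 8 were unchallenged, which gives 4 groups of 4 libraries: engrafted control, engrafted LPS, host control and host LPS. The labels give 3.5 or 9 months after transplantation without assigning either to a library, and the study's text gives 9 months for the challenge experiment. All mice, controls included, were irradiated, so that no group holds microglia of an unmanipulated brain, and each library is a bulk sample in which fewer cells of a type and less RNA per cell cannot be told apart. The unchallenged mice are not described as injected with vehicle, so that injection and LPS cannot be told apart either.

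Chemokines are small secreted proteins that attract leukocytes along a gradient and are named for the spacing of their first cysteines (CC, CXC, CX3C, XC). They act through membrane receptors that couple to Gi proteins, whereas the atypical receptors bind chemokines without that coupling and shape the gradient. In the brain, microglia carry the receptor Cx3cr1 for the neuronal ligand fractalkine, and blood monocytes that enter tissue carry Ccr2, the receptor for Ccl2, Ccl7 and Ccl12.

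The libraries held 395283 to 1203597 gene reads, with a median of 820587.5. Levels below are CPM, read counts divided by the library size in units of 1e+06 reads after TMM scaling, on which 3 reads, taken as the limit of detection, were 2.39 to 8.41. Values are listed by mouse, 5 to 8 for controls and 1 to 4 for LPS. The summed level of 7 microglia markers was 10836 to 12586 CPM in engrafted control, 5203 to 6728 in engrafted LPS, 18166 to 21613 in host control and 9995 to 10796 in host LPS. Markers of other myeloid cells were on the engrafted side: 4 perivascular macrophage markers summed to 462 to 625 CPM there and to 13.0 to 28.2 in host libraries, and 8 neutrophil markers to 48.8 to 1240 against at most 15.0. Most of the perivascular sum was Mrc1, at 403 to 550 CPM in engrafted libraries, where Lyve1 was at 0 to 5.06 CPM. Cd163 and Cbr2 were also higher in every engrafted library than in any host library. The 5 monocyte markers, Ly6c2, Chil3, Plac8 and Vcan among them, summed to 55.8 to 96.7 CPM in engrafted control, 869 to 1969 in engrafted LPS and at most 19.4 in host libraries, although the sort gate was Ly6C/G-negative. Every LPS change in the engrafted libraries below, whether a rise or a fall, was therefore seen beside higher monocyte markers. The part of these markers' cells in it was not tested.

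Of the 65 members, 27 passed the filter on low counts in at least 1 fit, 18 had over 3 reads in some library but entered no fit, 12 had 1 to 3 reads at most, and 8 had no read. Ligand transcripts took 0.394 to 0.466% of the gene reads in engrafted control and 1.03 to 1.83% in engrafted LPS. In host microglia their share was 0.479 to 0.570% without and 0.855 to 1.95% with LPS. For both populations the control and LPS libraries did not overlap in this share. Receptor transcripts took 0.426 to 0.463% without and 0.121 to 0.149% with LPS in engrafted cells and 0.412 to 0.479% and 0.164 to 0.263% in host microglia. Cx3cr1 alone held 79.9 to 84.1% of the receptor reads in engrafted control and 88.1 to 90.0% in host control. Receptors other than Cx3cr1 took 0.0738 to 0.0858% without and 0.0961 to 0.113% with LPS in engrafted cells, and 0.0472 to 0.0547% and 0.0369 to 0.0432% in host microglia, so that they lay higher with LPS in the former and lower in the latter.

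Groups were compared with edgeR's quasi-likelihood test over all genes, and calls required an adjusted p below 0.05 together with a change of more than 1 log2 unit in either direction. In unchallenged mice, 11 of 23 tested members were called toward engrafted cells and 3 toward host microglia, where 6.25% and 4.73% of all genes tested were called in these directions. After LPS, 13 of 24 were higher in engrafted cells and 4 in host microglia, against 6.73% and 4.34% of all genes. LPS raised 14 and lowered 4 of 25 tested members in engrafted cells (10.2% and 11.3% of all genes), and it raised 10 and lowered 1 of 17 in host microglia (7.66% and 10.4%). The change with LPS itself differed between the populations for 8 of 27 members, more positive in engrafted cells for 5 and in host microglia for 3, with 2.45% and 2.50% of all genes called. The median log2 fold change of the tested members was 1.05 and 1.53 for engrafted against host without and with LPS, and 1.13 and 1.25 for LPS in engrafted and host cells, whereas the median of all genes lay between -0.01 and 0.02 in these fits. A member that passed the filter through a single group had to differ, so the shares of members called describe the 27 that passed and not the 65. Between the populations this applies to Cxcl1, Cxcl3, Pf4, Ccl8, Ccr2 and Cxcr4, among others, and their adjusted p is no added support.

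**Figure D1:**
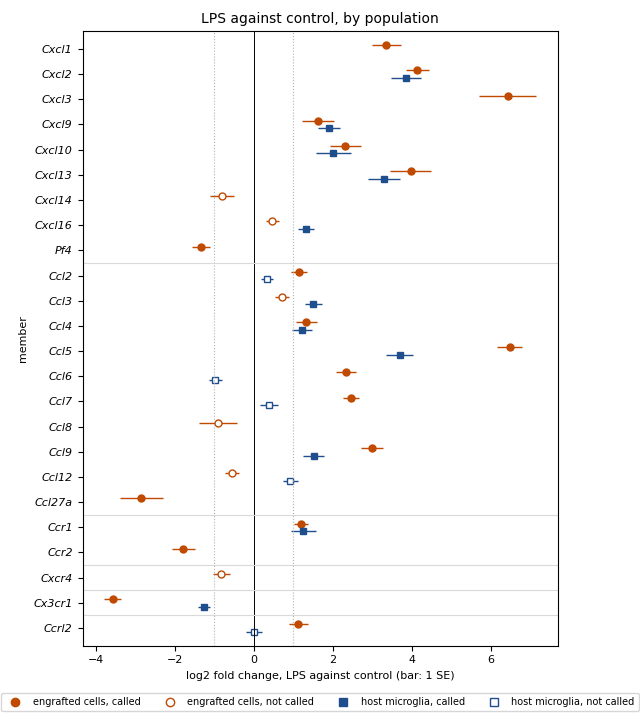
Log2 fold change of LPS against control (x axis, bars 1 SE) for each tested member reported here (y axis, grouped by role), circles for engrafted cells and squares for host microglia, filled where called and open where not; dotted lines mark the fold threshold. Most ligands lie to the right of 0 in both populations, Cx3cr1 lies to the left in both, and Ccl6 lies at 2.33 in engrafted cells and at -0.98 in host microglia; the Cxcl3 value is a fit against a group at the limit of detection and is no bound.

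Among the CXC ligands, those that attract neutrophils through Cxcr2 (Cxcl1, Cxcl2 and Cxcl3) stood above host microglia in the engrafted libraries after LPS, while the Cxcr3 ligand Cxcl10 and the B cell attractant Cxcl13 rose with LPS in both populations. Cxcl1, Cxcl2, Cxcl3 and Pf4 lie in 1 cluster of 7 members on chromosome 5 (mm9 positions 91188324 to 91334964), with Cxcl5, Ppbp and Cxcl15 between or beside them. Because Cxcl1, Cxcl2, Cxcl3 and Pf4 were all higher in engrafted cells after LPS, the 120 bases before their starts are shown. The stretch of Cxcl10 from the neighbouring cluster, whose difference between the populations did not pass the test, follows these. They are RefSeq sequences of build GRCm38.p6, 5′ to 3′ on the gene's strand, and capitals mark matches to GGAANNNCC, a pattern of NF-kappaB sites, on either strand, or to TGANTCA, a pattern of AP-1 sites.
Cxcl1 (chr5:90891125-90891244, plus strand): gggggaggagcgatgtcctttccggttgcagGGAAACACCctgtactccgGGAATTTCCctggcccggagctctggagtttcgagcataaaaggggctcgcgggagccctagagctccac
Cxcl2 (chr5:90903779-90903898, plus strand): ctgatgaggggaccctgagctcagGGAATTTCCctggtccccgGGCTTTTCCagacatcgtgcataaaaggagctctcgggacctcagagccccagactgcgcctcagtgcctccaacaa
Cxcl3 (chr5:90785981-90786100, plus strand): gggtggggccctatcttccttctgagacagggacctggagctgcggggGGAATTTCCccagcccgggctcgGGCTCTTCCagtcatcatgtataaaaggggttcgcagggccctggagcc
Pf4 (chr5:90772315-90772434, plus strand): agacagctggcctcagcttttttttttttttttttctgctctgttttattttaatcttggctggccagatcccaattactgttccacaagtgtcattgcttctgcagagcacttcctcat
Cxcl10 (chr5:92348890-92349009, minus strand): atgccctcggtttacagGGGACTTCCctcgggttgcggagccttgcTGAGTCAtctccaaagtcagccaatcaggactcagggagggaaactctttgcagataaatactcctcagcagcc
The letters GGAATTTCC stand in Cxcl1, Cxcl2 and Cxcl3 alike, each with a further match beside them, and Cxcl10 has 1 match to each pattern in this stretch. The stretch of Pf4 has no match to either, nor does that of Ccl6. Promoter windows of 250 bases before to 50 after the start were at hand for 49 members. GGAANNNCC on either strand was found in 18 of these 49 (36.7%) and in 18.5% of 32851 windows of all genes, and TGANTCA in 10 (20.4%) against 7.81%. A further pattern searched, GAAANNGAA of interferon response elements, was in 8 (16.3%) against 8.56%. Members were counted by gene, with a match in any window of the gene, and all genes by window. The members' shares are therefore favoured and not strictly comparable. Of the 14 ligands that LPS raised in either population, 9 had a window and 6 of these held GGAANNNCC. The patterns were chosen with the levels known, and a match is a description of these letters, not of a site in use.

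Cxcl2 was at 4.39, 10.7, 9.57 and 20.4 CPM in host control and 213, 283, 104 and 76.5 in host LPS. In engrafted cells it was at 89.6, 80.9, 134 and 184 CPM without and 2391, 2951, 1362 and 2066 with LPS. Within each population every LPS library lay above every control, and at each state every engrafted library lay above every host library. LPS raised Cxcl2 by a log2 fold change of 4.14 ± 0.28 (SE) in engrafted cells (edgeR, adjusted p = 9.28e-10) and of 3.85 ± 0.38 in host microglia (adjusted p = 5.36e-08). Engrafted cells exceeded host microglia by 3.41 ± 0.30, adjusted p = 1.03e-09 without LPS and by 3.72 ± 0.36, adjusted p = 5.80e-07 with it. The change with LPS was not shown to differ between the populations, with an estimate of 0.28 ± 0.56, adjusted p = 0.84 (95% interval -0.81 to 1.38).

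Cxcl1 was at 9.07, 8.43, 1.64 and 10.8 CPM in engrafted control and 76.1, 121, 52.0 and 72.9 in engrafted LPS, a rise of 3.35 ± 0.36, adjusted p = 5.64e-07. Host libraries held 0, 1.94, 0 and 1.02 CPM without and 0, 4.99, 1.21 and 0 with LPS. After LPS the populations were separated by 5.44 ± 0.50, adjusted p = 3.46e-07, and by 7.14 without host mouse 2, which held 5 of the 6 host reads. Cxcl3 was absent or nearly so from 3 groups, at 0, 0, 0 and 1.80 CPM in engrafted control, 2.93, 0, 0 and 0 in host control and 2.29, 2.99, 0 and 1.39 in host LPS. Only the engrafted LPS libraries were above the limit of detection, at 69.3, 52.5, 18.2 and 47.7 CPM. That is at least 10.2-fold over engrafted control and at least 13.2-fold over host LPS. Cxcl3 passed the filter through engrafted LPS alone and so had to differ, and its calls are no added support. The LPS changes of the populations were not shown to differ for Cxcl1 (2.30 ± 1.54, adjusted p = 0.447). For Cxcl3 the same edgeR estimate was 4.97 ± 2.20, adjusted p = 0.204. Neutrophils can make these ligands themselves, and the summed neutrophil markers were higher on the engrafted side as given above. In engrafted cells they summed to 266 to 1240 CPM without and 48.8 to 506 with LPS. Of these markers Mmp8 was higher with LPS, at 16.8 to 41.4 against 0 to 1.01 CPM, and Ly6g had at most 2 reads in any library. Engrafted LPS mouse 2 had the lowest sum of its group beside the highest Cxcl1 and Cxcl2, though not the highest Cxcl3. The part of neutrophils in these values was not tested.

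Pf4, platelet factor 4, was the ligand with the clearest separation by population. It was at 283, 374, 395 and 403 CPM in engrafted control and 160.0, 213, 124 and 84.1 in engrafted LPS, but at 4.39, 3.88, 7.18 and 4.08 in host control and 2.29, 3.99, 6.04 and 1.39 in host LPS. No host library came near an engrafted one in either state. The log2 fold change, engrafted against host, was 6.19 ± 0.22, adjusted p = 6.18e-17 without LPS and 5.36 ± 0.37, adjusted p = 8.18e-09 with it. LPS lowered Pf4 in engrafted cells by -1.34 ± 0.22, adjusted p = 9.12e-05. Besides platelets, Pf4 is known from perivascular macrophages, whose summed markers, mostly Mrc1, stood higher in the engrafted libraries as given above. The 5 platelet and megakaryocyte markers summed to 19.0 to 59.0 CPM in engrafted and 59.8 to 225 in host libraries, which was set by Gp9, at 2.803 to 18.0 against 47.3 to 169.8 CPM. Without Gp9 the sums were 19.8 to 52.3 CPM in engrafted control, 8.95 to 31.2 in engrafted LPS, 24.5 to 55.6 in host control and 8.45 to 12.5 in host LPS. The platelet chemokine Ppbp had at most 3 reads in any library, and the part of platelet RNA in the Pf4 values was not tested.

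Cxcl9 and Cxcl10, interferon-inducible ligands of Cxcr3, were present in all groups, whereas the related Cxcl11 had at most 4 reads in any library and none in engrafted control. Cxcl10 was at 120.0, 121, 247 and 101 CPM in host control, 686, 1357, 170.2 and 186 in host LPS, 116, 101, 152 and 66.6 in engrafted control and 830.0, 925, 332 and 143 in engrafted LPS. LPS libraries of mice 1 and 2 were far above those of mice 3 and 4 in both populations, and each LPS group overlapped its control group. The rise nevertheless passed the test in engrafted cells (2.31 ± 0.39, adjusted p = 0.000106) and in host microglia (2.00 ± 0.44, adjusted p = 0.000996), where it was 1.22 without mouse 2. No difference between the populations passed the test, with -0.39 ± 0.23, adjusted p = 0.23 without and -0.08 ± 0.56, adjusted p = 0.949 (95% interval -1.17 to 1.01) with LPS. Cxcl9 ranged over 10.2 to 20.7 CPM in host control, 36.2 to 81.4 in host LPS, 14.4 to 75.9 in engrafted control and 28.0 to 152 in engrafted LPS. It rose with LPS in engrafted cells (1.63 ± 0.41, adjusted p = 0.00352, and 2.29 without control mouse 6) and in host microglia (1.90 ± 0.28, adjusted p = 9.95e-06). Its higher level in unchallenged engrafted cells (1.26 ± 0.39, adjusted p = 0.0169) rested on mouse 6 at 75.9 CPM, since without that library the log2 fold change was 0.59 with adjusted p = 0.240.

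Cxcl13, which attracts B cells through Cxcr5, was at 11.7, 11.7, 17.5 and 3.06 CPM in host control and 101, 214, 48.3 and 83.5 in host LPS. In engrafted cells the values were 11.1, 1.69, 0 and 0 without and 80.5, 90.3, 70.3 and 28.0 with LPS. Both populations were low without LPS and every LPS library exceeded its controls. The rises were 3.96 ± 0.51, adjusted p = 4.83e-06 in engrafted cells, where control mouse 5 held 11 of the 12 control reads and the fit without it gave 6.49, and 3.30 ± 0.40, adjusted p = 9.73e-07 in host microglia, and after LPS no difference between the populations passed the test (-0.66 ± 0.36, adjusted p = 0.242).

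Cxcl14 and Cxcl16 are CXC ligands that many resting tissues make, Cxcl16 as a membrane-bound form that also takes up oxidized lipoproteins. Cxcl14 was at 38.3 to 55.8 CPM in engrafted control and 1.60 to 4.39 in host control, a difference of 3.87 ± 0.36, adjusted p = 3.34e-09. After LPS it was at 21.3, 22.0, 22.1 and 50.5 CPM in engrafted and 8.03, 7.98, 4.83 and 13.9 in host libraries, and the difference was 1.64 ± 0.39, adjusted p = 0.00665. Engrafted LPS mouse 4, the shallowest library, stood apart from the other engrafted LPS libraries at 50.5 CPM. Cxcl16 was at 158, 146, 130.0 and 162 CPM in host control and 430.1, 528, 319.9 and 209 in host LPS, a rise of 1.31 ± 0.21, adjusted p = 2.65e-05. Engrafted cells started higher, at 361, 361, 369 and 432 CPM against host control (1.41 ± 0.14, adjusted p = 7.59e-09), and reached 567, 642, 488 and 463 with LPS. That LPS change was below the fold threshold (0.47 ± 0.17, adjusted p = 0.0388), and the difference between the populations after LPS did not pass either (0.56 ± 0.24, adjusted p = 0.132).

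**Figure D2:**
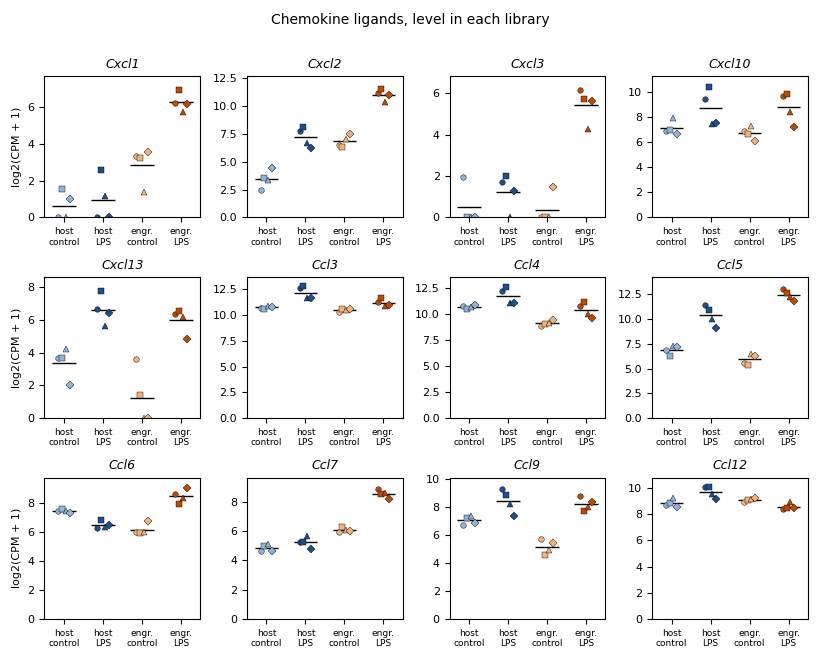
Level of 12 ligands in each library (y axis, log2 of CPM plus 1; x axis, the 4 groups), with 1 symbol per mouse and a line at the group mean. Cxcl1 and Cxcl3 stand out from the limit of detection in engrafted LPS, Ccl5 spans 40.5 to 8679 CPM, and Ccl6 is higher in host control than in engrafted control but lower in host LPS than in engrafted LPS.

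Among the CC ligands, LPS raised Ccl4, Ccl5 and Ccl9 in both populations, Ccl2, Ccl6 and Ccl7 by the call in engrafted cells, and Ccl3 by the call in host microglia. Ccl5, Ccl9, Ccl6, Ccl3 and Ccl4 lie side by side on chromosome 11 (mm9 positions 83339281 to 83478185), and all 5 were tested in every fit. Unchallenged, Ccl4, Ccl6 and Ccl9 of this cluster were higher in host microglia. After LPS, Ccl5 and Ccl6 were higher in engrafted cells and Ccl3 and Ccl4 in host microglia. Direct neighbours thus lay on opposite sides of the comparison.

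Ccl5 (RANTES), which attracts T cells and monocytes, was at 47.3, 40.5, 90.1 and 79.2 CPM in engrafted control and 8679, 6227, 4820.5 and 3602 in engrafted LPS. In host microglia it was at 117, 78.7, 152 and 143 CPM without and 2744, 2010.1, 1036 and 566 with LPS. The lowest LPS library of either population exceeded the highest control. LPS raised it by 6.47 ± 0.32, adjusted p = 1.66e-11 in engrafted cells, the largest fitted rise among members with a control group above the limit of detection, and by 3.68 ± 0.34, adjusted p = 2.34e-08 in host microglia. The rise was larger in engrafted cells by 2.79 ± 0.49, adjusted p = 0.000496. Engrafted cells stood above host microglia after LPS (1.90 ± 0.37, adjusted p = 0.0012), whereas without LPS the fitted difference had the opposite sign, -0.91 ± 0.22, adjusted p = 0.0021, and missed the fold threshold. Ccl5 is also a product of T and NK cells, whose 7 markers summed to 0 to 28.0 CPM in engrafted LPS and 2.29 to 17.9 in host LPS. In engrafted LPS, Cd3g, Klrb1c and Ncr1 were at 0, and Nkg7 reached 16.8 CPM in mouse 4. The part of such cells in the Ccl5 values was not tested.

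Ccl6, a CC ligand of rodents that acts on Ccr1, was called in opposite directions without and with LPS. Its host levels were 173, 194, 171 and 157 CPM without and 76.8, 112, 80.9 and 86.2 with LPS, and its engrafted levels were 62.5, 59.0, 62.3 and 106 and 398, 239, 324 and 524. Every host control library exceeded every engrafted control library, and every engrafted LPS library exceeded every host LPS library. The log2 fold change of engrafted against host was -1.22 ± 0.16, adjusted p = 1.77e-06 without LPS and 2.08 ± 0.25, adjusted p = 7.63e-06 with LPS. LPS raised it in engrafted cells (2.33 ± 0.26, adjusted p = 6.44e-07), while in host microglia the change of -0.98 ± 0.16, adjusted p = 4.17e-05 passed the adjusted p but not the fold threshold. The responses differed by 3.29 ± 0.32, adjusted p = 7.96e-08.

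Its neighbour and close relative Ccl9 was at 104, 146, 164 and 114 CPM in host control and 614, 455, 291 and 160.0 in host LPS. Engrafted cells held 50.4, 21.9, 29.5 and 41.4 CPM without and 424, 203, 252 and 319.6 with LPS. Unchallenged engrafted cells were lower than host microglia in every library (-1.78 ± 0.20, adjusted p = 1.04e-07), and after LPS the populations overlapped (-0.32 ± 0.32, adjusted p = 0.582). LPS raised Ccl9 by 2.99 ± 0.27, adjusted p = 3.67e-08 in engrafted and 1.51 ± 0.27, adjusted p = 0.000107 in host cells. The difference between these rises was called (1.47 ± 0.43, adjusted p = 0.0403), but its adjusted p was 0.0508 when libraries were scaled by their totals, 0.0689 with DESeq2, and above 0.05 in 9 of 16 fits that left out 1 library.

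Ccl3 and Ccl4 (MIP-1 alpha and beta), attractants of monocytes and T cells, are known products of microglia. Ccl4 was at 1742, 1368, 1569 and 1809 CPM in host control and 4738, 6126, 2135 and 2158 in host LPS, against 464, 518, 557 and 677 in engrafted control and 1678, 2299.7, 991 and 768 in engrafted LPS. Host libraries lay above engrafted ones without LPS, and with LPS the groups overlapped through mouse 2 of the engrafted side. It rose in both populations (1.33 ± 0.26, adjusted p = 0.000419 in engrafted, 1.21 ± 0.25, adjusted p = 0.000488 in host cells) and was higher in host microglia both without (-1.49 ± 0.13, adjusted p = 9.58e-10) and with LPS (-1.38 ± 0.35, adjusted p = 0.00963). The latter call was lost with DESeq2 (adjusted p = 0.0520), and that of the rise in host microglia without mouse 2 (0.89). Ccl3 was at 1659, 1557, 1894 and 1717 CPM in host control, 6063, 7083, 3243 and 3098 in host LPS, 1227, 1524, 1401 and 1521 in engrafted control and 2479.8, 3156, 1866 and 2049 in engrafted LPS. It rose in host microglia (1.50 ± 0.21, adjusted p = 6.33e-06), and the change in engrafted cells of 0.71 ± 0.19, adjusted p = 0.00479 stayed under the fold threshold. The higher Ccl3 of host microglia after LPS was a call at the threshold itself (log2 fold change -1.003 ± 0.259, adjusted p = 0.0109): with the mouse as a block the log2 fold change was -0.94 (adjusted p = 0.000395) and was not called. Whether Ccl3 responded differently in the populations was not decided by the test of the difference (-0.79 ± 0.29, adjusted p = 0.115).

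**Figure D3:**
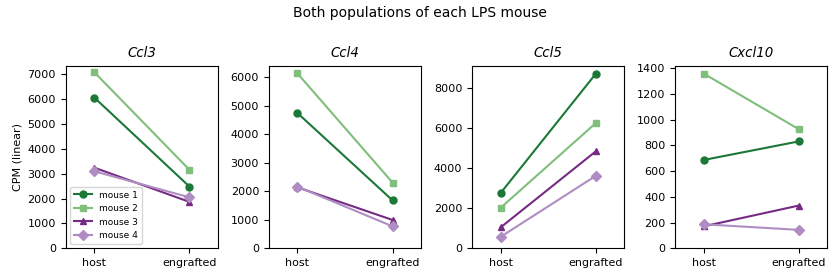
Ccl3, Ccl4, Ccl5 and Cxcl10 in both populations of each LPS mouse (y axis, CPM on a linear scale; x axis, host and engrafted; 1 line per mouse). In these 4 genes, chosen for this order after their values were seen, mice 1 and 2 lie above mice 3 and 4 in both populations, and Ccl5 is higher in the engrafted cells of every mouse while Ccl3 and Ccl4 are lower.

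The ligands of Ccr2 lie in the second chromosome 11 cluster (mm9 positions 81849079 to 81993314), which holds Ccl2, Ccl7, Ccl11, Ccl12, Ccl8 and Ccl1. Ccl2 (MCP-1) was at 300.2, 288, 272 and 399.5 CPM in engrafted control and 799.8, 753, 835 and 446 in engrafted LPS, with no overlap, and rose by 1.13 ± 0.21, adjusted p = 0.000204. In host microglia it was at 474, 478, 432 and 500.4 CPM without and 511, 488, 648 and 755 with LPS, a change of 0.34 ± 0.15, adjusted p = 0.0892 that did not pass. The difference between these changes did not pass either (0.78 ± 0.27, adjusted p = 0.0813). Ccl7 (MCP-3) was at 61.4, 77.5, 67.2 and 63.0 CPM in engrafted control, 475, 368, 379.9 and 286 in engrafted LPS, 23.4, 31.1, 34.3 and 24.5 in host control and 36.7, 36.9, 49.5 and 26.4 in host LPS. All engrafted libraries exceeded all host libraries of the same state, by 1.27 ± 0.20, adjusted p = 1.53e-05 without and 3.35 ± 0.23, adjusted p = 8.92e-09 with LPS. The LPS change of Ccl7 was 2.46 ± 0.19, adjusted p = 6.91e-09 in engrafted and 0.37 ± 0.23, adjusted p = 0.204 in host cells, and the change was more positive in engrafted cells (2.08 ± 0.28, adjusted p = 2.30e-05).

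Ccl12 (MCP-5) went the other way. It was at 485, 528, 583 and 603 CPM in engrafted control and 336, 359.9, 485 and 345 in engrafted LPS, and at 417, 453, 597 and 366 in host control and 1086, 1092, 730.4 and 581 in host LPS. Without LPS the populations overlapped (0.32 ± 0.14, adjusted p = 0.0954), and with LPS every host library lay above every engrafted library (-1.17 ± 0.23, adjusted p = 0.00121). Neither population's change passed the fold threshold, at -0.56 ± 0.18, adjusted p = 0.0192 in engrafted and 0.92 ± 0.19, adjusted p = 0.000563 in host cells. The difference of the changes did pass, with -1.49 ± 0.28, adjusted p = 0.00108. Ccl8 (MCP-2) was at 22.2, 97.8, 14.7 and 39.6 CPM in engrafted control and 34.7, 18.3, 26.0 and 5.61 in engrafted LPS, and no host library had more than 3 reads. It was at least 13.7-fold higher in unchallenged engrafted than in host cells, or at least 7.99-fold without engrafted mouse 6 at 97.8 CPM. After LPS, where Ccl8 entered no fit, the engrafted mean was at least 5.95-fold over the host limit of detection.

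**Figure D4:**
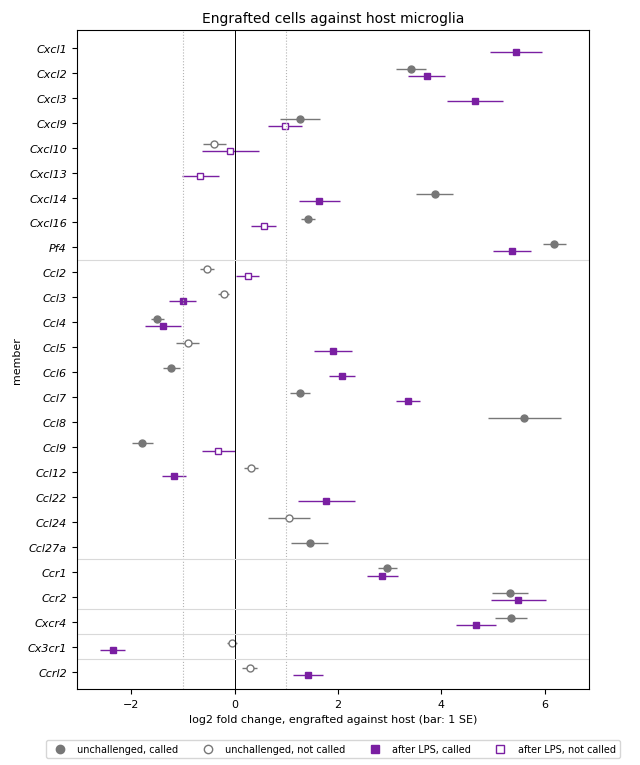
Log2 fold change of engrafted cells against host microglia (x axis, bars 1 SE) for each tested member reported here (y axis, grouped by role), grey circles without and purple squares with LPS, filled where called and open where not; dotted lines mark the fold threshold. Pf4, Ccr2 and Cxcr4 lie far to the right in both states, Ccl6 moves from -1.22 to 2.08, and Cx3cr1 moves from -0.05 to -2.36; values of Ccl8 without LPS and of Cxcl3, Ccr2 and Cxcr4 with LPS are fits against a group at the limit of detection and are no bounds.

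Of the remaining CC ligands that were tested, Ccl22, a Ccr4 ligand of dendritic cells and macrophages, was at 22.4, 30.5, 6.51 and 72.9 CPM in engrafted LPS and 13.8, 7.98, 7.24 and 4.17 in host LPS. It was called higher in engrafted cells (1.78 ± 0.55, adjusted p = 0.0308) although the groups overlapped, and the call was lost without engrafted mouse 2 or 4 or without host mouse 2, 3 or 4 (lowest log2 fold change 1.25). Both control groups were at the limit of detection, so LPS brought it at least 7.19-fold above control in engrafted (at least 4.30-fold without mouse 4, the shallowest library) and at least 2.60-fold in host cells, untested. Ccl27a, an attractant of skin-homing T cells, was at 14.1 to 27.9 CPM in engrafted control, 0 to 6.51 in engrafted LPS and 4.39 to 9.57 in host control. It was higher in unchallenged engrafted cells (1.46 ± 0.36, adjusted p = 0.00296) and fell with LPS there (-2.84 ± 0.54, adjusted p = 0.000322, and -3.71 without LPS mouse 3), but its reads may be shared with the near-identical Ccl27b, which makes it uncertain. Ccl24 (eotaxin-2) was at 13.1 to 14.7 CPM in engrafted control and 3.19 to 13.6 in host control and did not pass (1.05 ± 0.41, adjusted p = 0.0614).

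The CX3C ligand Cx3cl1 (fractalkine), which neurons make, stayed at or below 8.78 CPM in every library, and the XC ligand Xcl1 had 1 to 3 reads at most. Neither entered a fit.

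Among the receptors, engrafted cells were set apart from host microglia by Ccr1, Ccr2 and Cxcr4 in both states, and Cx3cr1 was the receptor that fell in both populations. Ccr2, the receptor of monocytes for Ccl2, Ccl7 and Ccl12, was at 84.6, 189, 121 and 227 CPM in engrafted control and 40.3, 31.7, 62.5 and 50.5 in engrafted LPS. Host control held 2.93, 2.91, 4.79 and 4.08 CPM and host LPS 0, 1.00, 0 and 2.78, the latter at or under 3 reads per library. No host library approached an engrafted one. Engrafted cells were higher without LPS by 5.33 ± 0.35, adjusted p = 3.86e-12, and with LPS at least 13.0-fold. LPS lowered Ccr2 in engrafted cells (-1.78 ± 0.29, adjusted p = 6.26e-05), while the summed monocyte markers of the same libraries were above those of control.

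Ccr1, the receptor for Ccl3, Ccl5, Ccl6 and Ccl9, was at 168, 145, 157 and 133 CPM in engrafted control and 340.0, 317, 409.8 and 348 in engrafted LPS. Host values were 16.1, 28.2, 14.4 and 22.5 CPM without and 33.3, 25.9, 58.0 and 83.5 with LPS. The engrafted libraries were above the host libraries in both states, by 2.95 ± 0.19, adjusted p = 2.47e-12 and 2.85 ± 0.30, adjusted p = 1.38e-06. LPS raised Ccr1 by 1.19 ± 0.17, adjusted p = 2.17e-05 in engrafted and by 1.25 ± 0.32, adjusted p = 0.00318 in host cells, where the groups overlapped and the call was lost without mouse 4 (0.91). The difference between these rises was -0.08 ± 0.34 with a 95% interval of -0.75 to 0.59.

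Cxcr4, the receptor of Cxcl12 that holds leukocytes in the bone marrow, was at 116, 80.9, 95.0 and 81.0 CPM in engrafted control and 50.3, 43.9, 54.6 and 78.5 in engrafted LPS. In host microglia it was at 2.93, 0.97, 3.99 and 1.02 CPM and, with LPS, at 2.29, 1.99, 1.21 and 2.78, at or under the limit of detection. The separation was 5.35 ± 0.31, adjusted p = 5.30e-13 without LPS and at least 16-fold with LPS. Its engrafted level was lower with LPS without passing the fold threshold (-0.82 ± 0.22, adjusted p = 0.00554). The ligand Cxcl12 was between 0 and 9.07 CPM in the libraries and entered no fit.

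Cx3cr1, the fractalkine receptor of microglia, was at 4016, 4129.7, 3989.5 and 3608 CPM in host control and 3607, 3695, 3888 and 3468 in engrafted control. These groups overlapped, and their difference did not pass the test (-0.05 ± 0.10, adjusted p = 0.776, 95% interval -0.23 to 0.14). With LPS the host level was 1517, 1261, 2101 and 1712 CPM and the engrafted level 239, 248, 437 and 342, and all 4 engrafted libraries were below all 4 host libraries. It fell in engrafted cells (-3.57 ± 0.22, adjusted p = 3.00e-10) and in host microglia (-1.27 ± 0.16, adjusted p = 1.08e-06), and the fall was larger in engrafted cells by -2.31 ± 0.25, adjusted p = 8.04e-07. After LPS it was thus lower in engrafted cells (-2.36 ± 0.24, adjusted p = 1.37e-06). The study's text describes congenic wild-type CD45.1 donors for the RNA sequencing, whereas its methods name mice with altered Cx3cr1 alleles as donors, and the labels give WT. An altered allele could change this gene's count in engrafted cells, and this was not tested.

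Ccrl2, an atypical receptor that binds chemerin, was at 172, 204, 199.9 and 252 CPM in engrafted control and 500.0, 694, 286 and 370.1 in engrafted LPS. Host control was at 171, 185, 154 and 189.9 CPM and host LPS at 198, 257, 118 and 125. The engrafted LPS libraries were above all others, and the host LPS libraries lay on both sides of their controls, those of mice 1 and 2 above and those of mice 3 and 4 below. It rose in engrafted cells (1.13 ± 0.23, adjusted p = 0.000744), not by the test in host microglia (-0.00 ± 0.20, adjusted p = 0.99), and was higher in engrafted cells after LPS (1.42 ± 0.28, adjusted p = 0.00152). The difference between the changes was called (1.13 ± 0.33, adjusted p = 0.0419), yet its adjusted p was above 0.05 or its size under the fold threshold in 12 of 16 fits that left out 1 library.

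**Figure D5:**
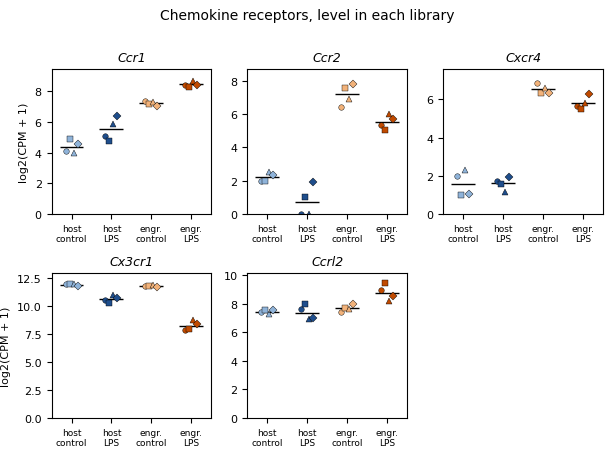
Level of 5 receptors in each library (y axis, log2 of CPM plus 1; x axis, the 4 groups), with 1 symbol per mouse and a line at the group mean. Ccr1, Ccr2 and Cxcr4 are higher in engrafted than in host libraries in both states, Cx3cr1 is level between the control groups and lowest in engrafted LPS, and Ccrl2 is highest in engrafted LPS.

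The change with LPS thus differed between the populations for 8 members. It was more positive in engrafted cells for Ccl5, Ccl6, Ccl7, Ccl9 and Ccrl2, and in host microglia for Ccl12, Cxcl14 and Cx3cr1. For Cxcl14 the difference was -2.24 ± 0.58, adjusted p = 0.0192, with the host side at few reads in both states. Of these 8, the calls for Ccl5, Ccl6, Ccl7, Ccl12 and Cx3cr1 were kept in all 16 fits that left out 1 library.

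The other 18 members with over 3 reads in a library stayed low. The dendritic cell ligand Ccl17 was at 16.8, 15.9, 3.90 and 5.61 CPM in engrafted LPS and at 0 in all control libraries. The lymph node homing receptor Ccr7 was at 1.01 to 18.0 CPM in engrafted control, 6.51 to 22.0 in engrafted LPS and 1.39 to 8.03 in host LPS, and at 0 in host control. Cxcr3, the receptor of Cxcl9 and Cxcl10, was at 8.19 to 23.6 CPM in engrafted control and 0 to 3.88 in host control, and Ccr6, the receptor of Ccl20, was higher on the host side at 4.08 to 10.4 against 0 to 1.69 CPM. Cxcr2, through which Cxcl1, Cxcl2 and Cxcl3 act and which marks neutrophils, was at 0 in all engrafted control libraries and at 2.24, 0, 0 and 8.41 CPM in engrafted LPS, against 1.15, 0, 1.21 and 5.56 in host LPS. Engrafted control mouse 5 held the highest Ccl20, with 32 reads and at most 1 in any other library, and the highest Ccl11, with 13 reads and at most 3 in any other. The remaining 9 of the 18 (Ackr1, Ackr4, Ccl21b, Ccl21c, Ccl25, Ccr3, Ccr9, Cxcl5 and Cxcl11) did not exceed 8 reads in any library, and the overlapping gene models of Ccl21b and Ccl21c had the same counts throughout. The 12 members with 1 to 3 reads at most were Ackr3, Ccl1, Ccl19, Ccl21a, Ccl27b, Ccr10, Cxcl17, Cxcr5, Cxcr6, Ppbp, Xcl1 and Xcr1, and no read was found for Ackr2, Ccl26, Ccl28, Ccr1l1, Ccr4, Ccr8, Cxcl15 and Cxcr1, which a library would show from 2.39 to 8.41 CPM upward.

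Genes around the chemokine system were followed in 3 further lists. Of 40 genes of chemokine receptor signalling, from Gi proteins to the small GTPases of cell movement, LPS raised 5 and lowered 6 of 37 tested in engrafted cells and raised 4 and lowered 6 of 37 in host microglia, where the shares of all genes were 10.2% and 11.3% and, in host microglia, 7.66% and 10.4%. The Src-family kinase Fgr rose in both (log2 fold change 4.31 ± 0.26 and 3.42 ± 0.21), and the G protein regulators Rgs2 (-1.93 ± 0.20 and -1.73 ± 0.19) and Rgs10 (-1.46 ± 0.20 and -1.80 ± 0.14) fell in both. Rgs1, which dampens chemokine receptor signals, was higher in engrafted cells without (1.51 ± 0.13) and with LPS (1.23 ± 0.20). Across the populations 3 of 38 genes were higher in engrafted cells and 1 in host microglia without LPS, and 3 and 3 of 37 with LPS (all genes 6.25% and 4.73%, and 6.73% and 4.34%), and 3 of 38 responded more positively in engrafted cells (2.45%). The median of the list was between -0.15 and 0.14 in the 5 fits.

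Of 13 proteases and proteoglycans that cleave or bind chemokines, 2 of 6 tested were higher in engrafted cells without LPS and 3 of 7 with LPS, where 6.25% and 6.73% of all genes were. LPS raised 3 and lowered 1 of 7 in engrafted cells and raised 2 and lowered 1 of 6 in host microglia, set against the same 10.2% and 11.3% and 7.66% and 10.4% of all genes. The proteoglycan Sdc4 rose in both (3.85 ± 0.27 and 3.94 ± 0.28), as did the membrane protease Mmp14 (1.84 ± 0.20 and 2.54 ± 0.22). Of 12 receptors for other attractants, LPS raised 5 and lowered 4 of 12 in engrafted cells and raised 4 and lowered 4 of 11 in host microglia, again beside 10.2% and 11.3% and 7.66% and 10.4% of all genes, and 3 and 2 of 12 (2.45% and 2.50% of all genes) responded more positively in engrafted and host cells. Between the populations 1 of 9 was higher in engrafted cells and 3 in host microglia without LPS, and 3 and 3 of 11 with LPS (all genes 6.25% and 4.73%, and 6.73% and 4.34%). The leukotriene B4 receptor Ltb4r1 was at 239 to 580.3 CPM in engrafted LPS and at 2.99 to 5.56 in host LPS (6.62 ± 0.38, adjusted p = 1.03e-09). The formyl peptide receptor Fpr2 rose in engrafted cells, where it ranged over 1.69 to 7.20 CPM without and 112 to 211 with LPS. The C3a receptor C3ar1 responded more positively in host microglia (-2.32 ± 0.26, adjusted p = 9.89e-07). As a check of the challenge, 6 of 7 tested LPS response genes rose in engrafted cells and 7 of 8 in host microglia. Of all genes 10.2% and 7.66% did. The medians of the list were 2.47 and 2.09, against -0.01 and 0.01 over all genes. Nfkbiz had a mean of 405 CPM in engrafted control and 306 in engrafted LPS.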

How the data were processed

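The deposited values are raw gene-level read counts, made by the authors from 16 libraries made with a derivative of MARS-seq, which counts the 3′ ends of poly(A) RNA. Reads were mapped with HISAT (0.1.5 in the submitters' processing notes) to mm9, and HOMER counted uniquely mapped reads on the sense exons of RefSeq genes. No removal of PCR duplicates is named, so limits of detection cover counting error only. Groups came from the sample titles.

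The tests used edgeR 4.0.16 under R 4.3.3 (filterByExpr with minimum count 10 and minimum total 15, TMM, quasi-likelihood F-test, Benjamini-Hochberg over all genes tested). Each pair of groups was fitted on its 8 libraries and the interaction on all 16. SE and 95% intervals are on the log2 scale. A fold against a group with at most 3 reads in each of its libraries was computed against the mean CPM of 3 reads in that group and is a lower bound. The procedure was tested on simulated data. The members and the gene lists were chosen with earlier results of these data known. Every member that entered a fit is named, except 1 that is counted but not reported here. Promoter windows are from RefSeq (GRCm38.p6) and were matched by symbol.

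The labels state that CD45.1 and CD45.2 cells were sorted from the same animal, so the libraries of a mouse are paired. Pearson's r of their deviations from the group means was 0.148, 0.0168, 0.209, 0.127, 0.0283, -0.0324, 0.0474 and 0.0828 for mice 1 to 8 over 8827 genes. The study's methods give a fold and an adjusted p threshold and no model, the tests reported here had no term for the mouse, and a fit with the mouse as a block was an alternative. Others were RLE and total scaling, DESeq2 1.42.0, other filters, the adjusted p alone, a joint fit and leaving out each library. Shares without Cx3cr1, the platelet sum without Gp9 and folds over the limit of detection without each library were added after seeing the data.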

Additional observations from a re-analysis of the deposited data

Results flagged for a closer look

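In 97 groups of 4 libraries, 7 held a library farther from its nearest neighbour than Dixon's 95% criterion allows, where chance gives 4.85. Engrafted LPS mouse 3 had Ccl12 at 485 CPM against 336 to 360 in the other libraries of its group. Engrafted control mouse 8 had Ccl6 at 106 CPM (the others 59.0 to 62.5) and Cxcl16 at 432 CPM (361 to 369). Host control mouse 7 had Cxcl10 at 247 CPM (101 to 121) and Pf4 at 7.18 CPM (3.88 to 4.39). Engrafted control mouse 5 had Cxcl13 at 11.1 CPM (0 to 1.69), and engrafted LPS mouse 4 had Cxcl14 at 50.5 CPM (21.3 to 22.1). In the engrafted libraries of mice 8 and 4 the haemoglobin gene Hbb-b1 was at 1263 and 2450 CPM, against 2.24 to 23.2 in the other engrafted libraries, and its part in these values was not tested.

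By the interaction test in edgeR, the log2 change with LPS in engrafted cells minus that in host microglia was 3.29 for Ccl6, 2.79 for Ccl5, 2.08 for Ccl7, 1.47 for Ccl9 and 1.13 for Ccrl2. It was -1.49 for Ccl12, -2.24 for Cxcl14 and -2.31 for Cx3cr1. The fitted changes in engrafted and host cells had opposite signs for Ccl6, at 2.33 and -0.98, and for Ccl12, at -0.56 and 0.92.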

How the results depend on the processing

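Counts of members called were within 1.5 times of those reported under most alternatives. Requiring 10 reads in every library removes members low in 1 population. It left 3 of 14 members higher in unchallenged engrafted cells and 6 of 17 after LPS, beside 230 of 5915 and 245 of 4975 genes. With the adjusted p alone, 6 of 23 were higher in unchallenged host microglia, beside 1098 of 8042 genes. LPS then lowered 7 of 25 in engrafted and 3 of 17 in host cells, beside 1467 of 7609 and 1689 of 8238 genes. Without a filter it lowered 9 of 56 and 4 of 55, beside 1337 of 15382 and 1191 of 15202 genes. In a joint fit of all 16 libraries it lowered 2 of 27 in host microglia, beside 916 of 8847 genes. With DESeq2, 2 of 50 were higher in host microglia after LPS, beside 368 of 14823 genes. Ccl3 and Ccl4 (adjusted p = 0.0520) were lost there. Leaving out 1 library gave 10 to 12 and 3 to 4 members for engrafted and host cells unchallenged, 12 to 15 and 3 to 4 after LPS, 13 to 15 raised and 4 to 7 lowered in engrafted cells, 9 to 11 and 1 to 2 in host microglia, and 3 to 5 and 2 to 3 for the interaction. The mouse as a replicate block removed the call of Ccl3 after LPS (-0.94) and no other member call. No call of a member changed sign.

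Over single members, 570 of the fits without 1 library kept the call and 37 lost it, as did 475 and 8 of the others. The interaction of Ccl9 (1.24 to 1.54 where lost) was lost without engrafted mouse 1, 6, 7 or 8 or host mouse 3, 4, 6, 7 or 8, and that of Ccrl2 (0.87 to 1.21) without engrafted mouse 1, 2, 5, 6 or 7 or host mouse 1, 3, 4, 5, 6, 7 or 8. That of Cxcl14 was lost without host mouse 4 (-1.94) or 7 (-1.96), Ccrl2 after LPS in engrafted cells without mouse 2 (0.89), Ccl4 in host microglia without LPS mouse 2 (0.89), and Ccl3 after LPS without host mouse 1 or 2 or engrafted mouse 3 or 4 (-0.94 to -0.78). Cxcl9 in unchallenged mice was also lost with DESeq2 (adjusted p = 0.105) and in the joint fit (0.0518). Scaling by library totals shifted the median of all genes by -0.15 after LPS, engrafted against host, and turned the split of all calls from 528 and 340 to 448 and 470, and under it Ccl9 lost its interaction call (adjusted p = 0.0508). The shallowest library held 395283 reads, and differences of the 18 members that entered no fit were not tested by the fits reported.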

Other observations

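In several ligands, LPS mice 1 and 2 lay above mice 3 and 4 in both sorted populations. Host Ccl3 was at 6063 and 7083 CPM in mice 1 and 2 and at 3243 and 3098 in mice 3 and 4, and engrafted Ccl3 at 2480 and 3156 against 1866 and 2049. Ccl4, Ccl5 and Cxcl10 had the same order of these pairs in both populations. These 4 were picked for this order. Cxcl2, Cxcl13, Cxcl16 and the receptor Ccrl2 shared it, as did Cxcl3 with its host values at the limit of detection. Not every ligand did. Ccl12 was at 1086 and 1092 CPM in host mice 1 and 2 against 730.4 and 581 in mice 3 and 4, but at 336 and 360 against 485 and 345 in engrafted cells. Ccl9 was highest in mouse 1 of both populations while mouse 4 was second highest among engrafted libraries, at 320 CPM, and lowest among host libraries, at 160.0 CPM. The pairs were seen in the data and are not groups of the study, and the labels give no batch or litter for the mice.

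Among members that entered no fit of a comparison, some were called without the filter on low counts. In unchallenged mice Ccl20, Ccr6, Ccr7, Cxcl1 and Cxcr3 were called, of which DESeq2 also called Ccr6, Ccr7, Cxcl1 and Cxcr3. After LPS Ccl17, Ccl8 and Ccr7 were called, of which DESeq2 also called Ccl17 and Ccl8. Ccl20 had 32 reads in engrafted control mouse 5 and at most 1 in any other library, so that its call rested on that library.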
